A study of Mus musculus with 12 samples.

Results

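The 10 genes Ifit1, Ifit2, Ifit3, Ifit3b, Isg15, Rsad2, Mx1, Mx2, Bst2 and Ifi44 encode interferon-induced antiviral proteins. They were taken by name from the 29428 genes of the deposited RNA-seq table, where each has 1 row, and all 10 were among the 16127 genes tested. The table covers 2 immortalized mouse striatal lines, STHdhQ7/Q7 (genotype normal) and STHdhQ111/Q111 (genotype HD, for Huntington's disease), with 3 libraries in each of 4 groups. Q7-C and Q111-C are nontreated cells, and Q7-T and Q111-T are cells given 100 ng/mL murine IFNγ together with 5 µg/mL LPS for 24 h. Each genotype is represented by 1 cell line, so a difference between the lines and a difference between the genotypes cannot be told apart, and no group received IFNγ or LPS alone. The study calls the libraries of a group biological replicates, but neither it nor the labels state whether they came from separate cultures, and the p-values measure only the spread between these libraries.

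Interferons bind cell-surface receptors whose Janus kinases phosphorylate STAT proteins. Type I interferons mainly act on genes with an interferon-stimulated response element (ISRE), which is bound by a complex that includes STAT2 and IRF9, and IFNγ mainly on genes with a gamma-activated site (GAS). LPS signals through TLR4 to NF-kB and IRF factors and can lead to the secretion of IFN-β, which then acts on the same cells. The genes switched on in this way include RNA-binding proteins that block viral translation (IFIT family), a ubiquitin-like modifier (ISG15), an enzyme that makes a chain-terminating nucleotide (viperin, from Rsad2), dynamin-like GTPases (Mx1, Mx2), a membrane tether for budding virions (BST2 or tetherin) and IFI44.

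The promoters of these genes were read first, because ISRE and GAS matches are the features by which promoters of interferon-induced genes are usually described. RefSeq start-site windows of GRCm38.p6 (250 bases before to 50 after the start) were at hand for 8 of the 10 genes, with 2 windows for Ifit2. The stretches around the matches are printed 5′ to 3′ on the strand of the gene, with the letters of each match in capitals. The ISRE core was searched as GAAANNGAAA, the GAS core as TTCNNNGAA and NF-kB by its consensus, on both strands, so that TTTC runs are ISRE cores on the opposite strand.
Ifit1 (chr19:34640755-34640843, plus strand): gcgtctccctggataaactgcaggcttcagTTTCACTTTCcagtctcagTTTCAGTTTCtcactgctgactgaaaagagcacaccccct
Ifit3 (chr19:34583343-34583446, plus strand): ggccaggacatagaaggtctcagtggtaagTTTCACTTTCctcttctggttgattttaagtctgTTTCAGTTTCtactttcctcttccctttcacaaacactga
Isg15 (chr4:156200845-156200926, minus strand): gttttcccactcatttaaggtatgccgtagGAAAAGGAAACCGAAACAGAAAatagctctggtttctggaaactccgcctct
Rsad2 (chr12:26456533-26456602, minus strand): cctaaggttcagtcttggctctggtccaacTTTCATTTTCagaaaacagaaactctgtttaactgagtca
Bst2 (chr8:71537557-71537638, minus strand): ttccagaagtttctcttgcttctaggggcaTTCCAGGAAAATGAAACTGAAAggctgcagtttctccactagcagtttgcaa
Ifit2 (chr19:34550444-34550491, plus strand): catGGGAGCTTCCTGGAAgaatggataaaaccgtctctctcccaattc

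An ISRE core was found in the windows of 6 genes: Ifit1, Ifit3, Ifit3b, Isg15, Rsad2 and Bst2. The core occurred in 3.44% of all 32851 windows of this length, a GAS core in 8.3% and the NF-kB consensus in 5.8%. Ifit1, Ifit3 and Ifit3b each held 2 separate cores, Isg15 held 3 overlapping cores between 78 and 57 bases before its start, and Rsad2 held 1 core that began 120 bases before it. In Bst2, 2 overlapping ISRE cores overlapped a GAS core that began 136 bases before the start. The stretch printed for Ifit3 was also found, letter for letter over its 104 bases, at chr19:34607739-34607842 before Ifit3b, its near-identical copy. Ifit2 had a GAS core overlapping an NF-kB match at the far end of its first window and no match in its second, and the Ifi44 window had no match to any of the motifs. These matches describe letters in a window, and where no match was found, only these letters are missing from this window.

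**Figure D1:**
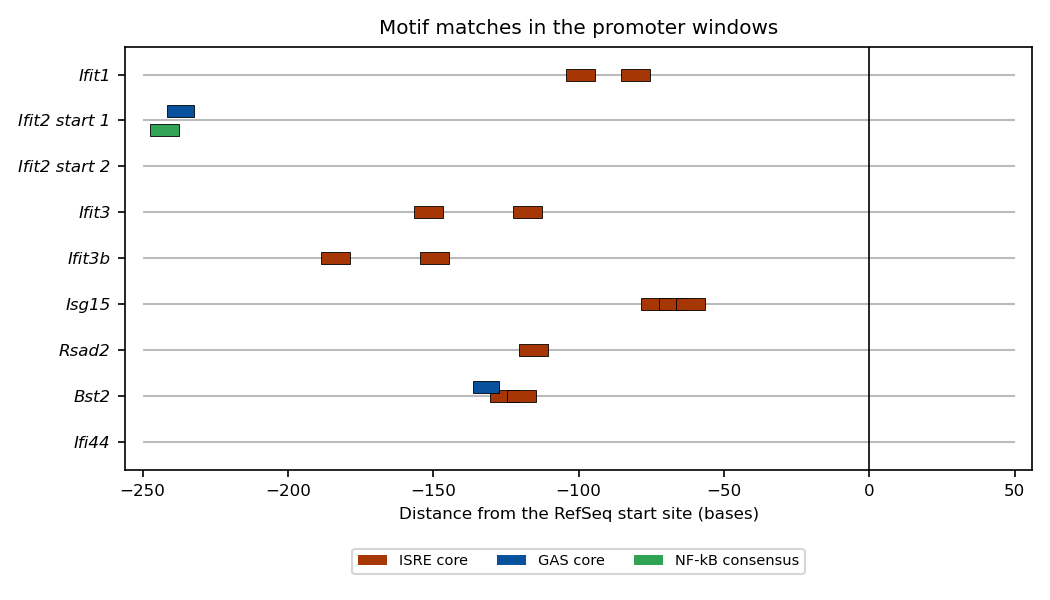
Positions of ISRE core, GAS core and NF-kB consensus matches (boxes, either strand) in the 9 promoter windows of 8 genes, in bases from the RefSeq start site (0). ISRE cores lie between 188 and 57 bases before the start in 6 genes, and the windows of Ifi44 and of the second Ifit2 start hold no match.

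The libraries held between 57505990 and 96417834 estimated counts. Levels below are TPM, which is scaled for transcript length and library total. Fold changes and adjusted p-values are from edgeR's quasi-likelihood test on the counts with Benjamini-Hochberg adjustment over all genes tested, and a gene was called when the adjusted p was under 0.05 and the absolute log2 fold change at least 1. Errors of fold changes are SE, and errors of levels are SD with n = 3. Q7-C replicate 1 and Q7-T replicate 2 stood apart from the other libraries of their groups: genes with a transcript over 4500 bases were lower there than in the other 2 libraries by a median log2 of -0.84 and -1.08, and genes under 1500 bases higher by 0.28. Q111-T replicate 2 deviated in the same directions by less (-0.52 and 0.15) and had the lowest Q111-T value of all 10 genes. Without it, no log2 value of the 10 genes in any of the 5 comparisons moved by more than 0.133, and the call of Mx1 in the interaction was the only one lost or gained. As a check of the labelled tissue, 10 of 14 neuronal markers were among the rows, and 6 of these stayed under 1 TPM in every library. The neuronal sum was 22.7 to 27.8 TPM in nontreated and 59.2 to 86.4 TPM in treated STHdhQ7 cells, and 15.0 to 17.8 and 31.4 to 35.4 TPM in STHdhQ111 cells. Its highest gene, Tubb3, rose with treatment by a log2 of 2.29 ± 0.25 (adjusted p = 0.000117) and 2.77 ± 0.25 (adjusted p = 1.53e-05), Map2 fell in STHdhQ7 cells by 1.80 ± 0.34 (adjusted p = 0.00868), with a difference between the lines of 1.81 ± 0.48 (adjusted p = 0.0496), and Penk reached 5.42 TPM. Between the nontreated lines, Penk was higher in Q111-C (4.88 ± 1.43, adjusted p = 0.0295) and Tubb3 lower (-2.46 ± 0.25, adjusted p = 2.98e-05). The mesenchymal markers, with Vim the highest, summed to 4300 to 5070 TPM in nontreated and 3330 to 3850 TPM in treated STHdhQ7 cells, and to 4130 to 4300 and 1710 to 2030 TPM in STHdhQ111 cells. Col1a1 and Col1a2 fell in both lines, by a log2 of between 1.45 and 2.56, and between the nontreated lines Acta2 was lower in Q111-C (-5.59 ± 0.35) and Col1a2 (3.81 ± 0.18), Fn1 (1.29 ± 0.31) and Col1a1 (1.25 ± 0.14) higher. Of the macrophage and microglial markers, Tmem119 had 2.96 to 20.2 TPM and fell by 1.78 ± 0.23 and 1.77 ± 0.22 on the log2 scale (adjusted p = 0.000429 and 0.000186), and the others summed to at most 0.479 TPM. Neural progenitor markers summed to 76.5 to 128 TPM in Q7-C against 11.3 to 13.9 TPM in Q111-C, where Nes (-3.18), Sox2 (-3.64) and Pax6 (-6.16) were called lower, and astrocyte markers to 21.0 to 39.0 against 74.0 to 89.2 TPM. Gja1 was the highest astrocyte marker, and Aldh1l1 was lower in Q111-C (-3.56 ± 1.16) and Slc1a3 higher (3.18 ± 0.28). With treatment of STHdhQ111 cells Slc1a3 fell by 1.75 ± 0.27, with a difference in response of -1.96 ± 0.38 (adjusted p = 0.0109). Aldh1l1 went the other way there (5.13 ± 1.21), to 1.05 to 1.61 TPM in Q111-T. It reached 0.5 TPM in only 1 library outside Q111-T and so passed the filter on low values through that group. Its calls in comparisons with Q111-T are thus no test. The treated libraries gave 36.6 to 106 against 9.63 to 14.5 TPM for progenitor and 15.6 to 41.7 against 70.0 to 84.3 TPM for astrocyte markers. The part of these shifts in the results below was not tested. The libraries are bulk RNA, so more responding cells and more RNA per responding cell cannot be told apart.

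All 10 genes were upregulated by IFNγ/LPS in STHdhQ111 cells (Q111-T vs. Q111-C), where 8.28% of all genes tested were called upregulated. In STHdhQ7 cells (Q7-T vs. Q7-C), 7 of the 10 were upregulated against 2.93% of all genes, and Ifit2, Rsad2 and Mx1 were not called. Without treatment, 8 of the 10 were higher in STHdhQ111 cells than in STHdhQ7 cells (Q111-C vs. Q7-C) against 7.62% of all genes, and Ifit2 and Bst2 were not called. After treatment, 9 of the 10 were higher in Q111-T than Q7-T against 13.3% of all genes, and Bst2 was not called. Rsad2 and Mx1, in both counts between the lines, reached the filter of 0.5 TPM in STHdhQ111 libraries alone. Their calls between the lines are thus not independent of that filter. The median log2 fold change of the 10 genes was 3.70 for the response of STHdhQ7 cells and 4.18 for that of STHdhQ111 cells, 3.30 between the nontreated lines and 4.49 between the treated lines, and the medians over all genes tested lay between -0.03 and 0.00. These comparisons share groups with one another (each group enters 2 of the 4) and are not independent. The TPM of the groups did not overlap for the same 7, 10, 8 and 9 genes, where 5.55%, 19.8%, 38.8% and 33.9% of all genes had the first group wholly above the second. For Ifit1, Ifit3b, Rsad2 and Mx1, every Q7-T library was also below every Q111-C library, which is 4 of the 10 genes against 44.4% of all genes.

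**Figure D2:**
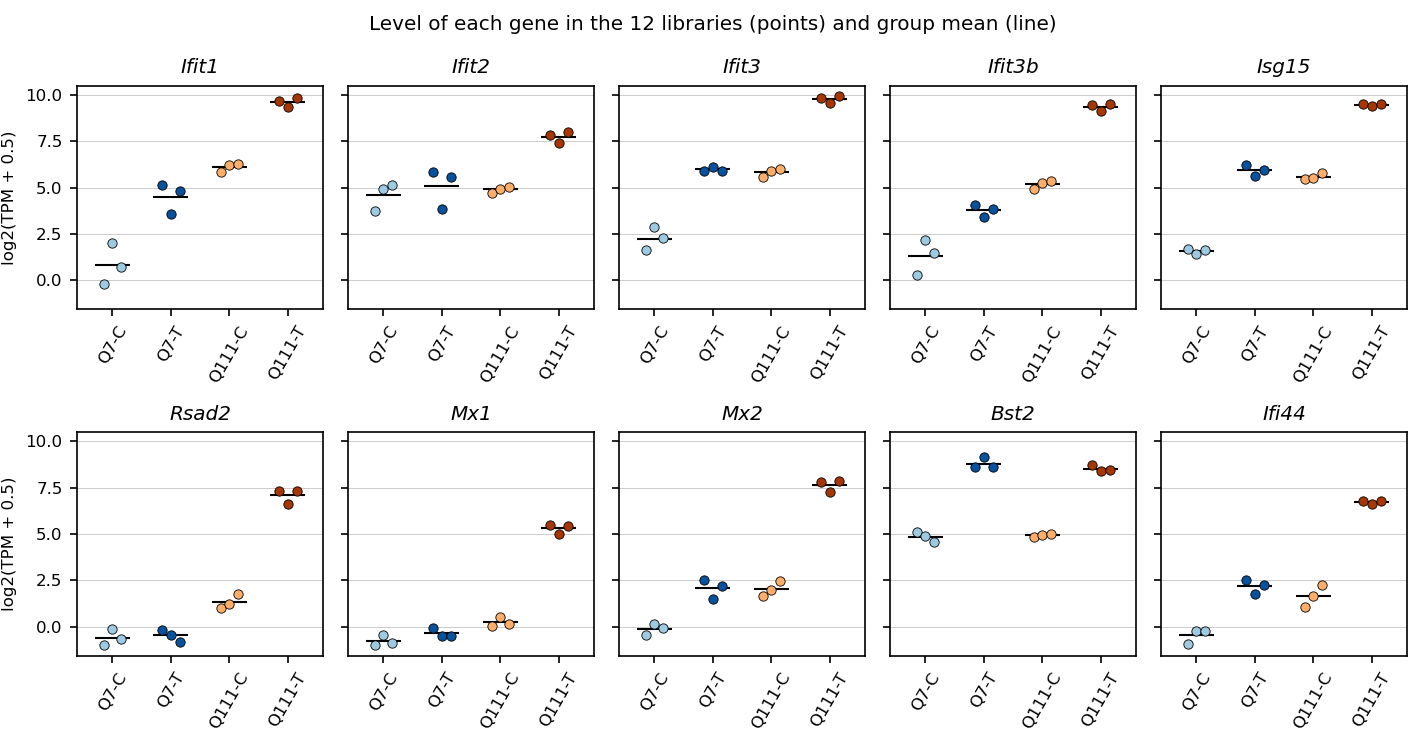
Level of each gene in the 12 libraries as log2(TPM + 0.5) (vertical axis) by group (points, libraries; lines, means of the 3 log2 values). Every gene is highest in Q111-T except Bst2, whose Q7-T and Q111-T libraries overlap, and Rsad2 and Mx1 stay below 1 TPM in all 6 STHdhQ7 libraries.

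The response itself differed between the lines for 4 genes. In the interaction of cell line and treatment, which compares the log2 fold change in STHdhQ111 cells with that in STHdhQ7 cells, Rsad2, Mx1, Mx2 and Ifit2 had the larger response in STHdhQ111 cells, and 3.52% of all genes were called in this direction. No member was called in the other direction, in which 1.2% of all genes were called. For the other 6 genes the adjusted p lay between 0.104 and 0.983, which does not show that the lines responded alike. The 10 genes are described below by role.

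**Figure D3:**
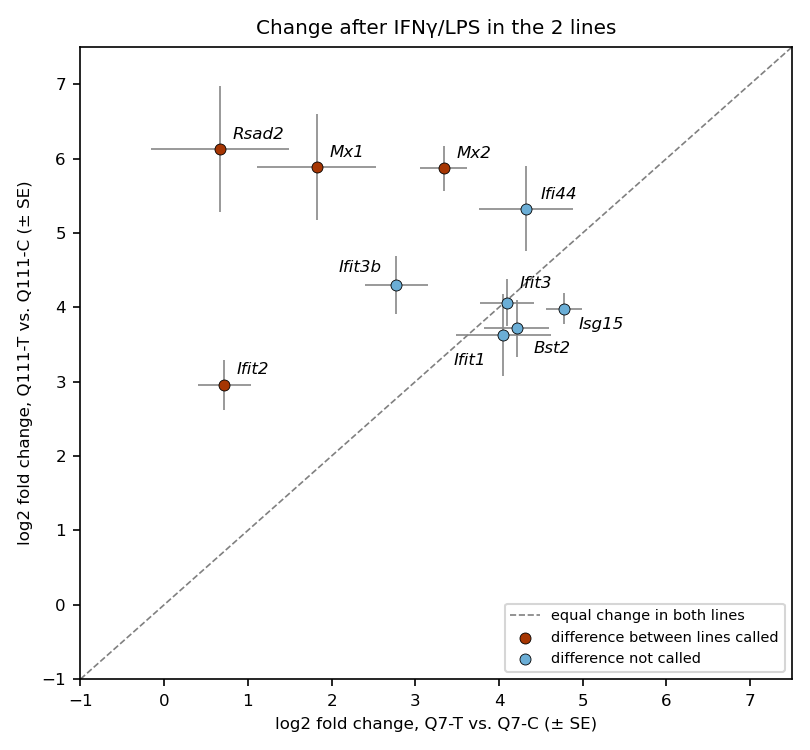
Log2 fold change after IFNγ/LPS in STHdhQ7 cells (horizontal axis) and STHdhQ111 cells (vertical axis) for the 10 genes, with SE bars from 3 libraries per group; the dashed line marks equal change. Rsad2, Mx1, Mx2 and Ifit2, coloured as called in the interaction, lie above the line, while Ifit1, Ifit3, Isg15 and Bst2 lie near it.

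The IFIT proteins bind viral RNA and block its translation. Ifit1 (ENSMUSG00000034459, chr19:34640871-34650009 in GRCm38), which binds capped RNA that lacks 2′-O methylation, had 0.358, 3.58 and 1.14 TPM in the 3 Q7-C libraries and 35.1, 11.4 and 27.8 TPM in Q7-T. In STHdhQ111 cells it had 56.2, 74.0 and 76.8 TPM without treatment and 818, 654 and 917 TPM after it. The 4 groups did not overlap, and every nontreated STHdhQ111 library was above every treated STHdhQ7 library. Ifit1 rose 16.6-fold in STHdhQ7 cells (log2 4.05 ± 0.57, adjusted p = 0.000915) and 12.3-fold in STHdhQ111 cells (log2 3.62 ± 0.55, adjusted p = 0.000705). It was 34.8-fold higher in Q111-C than Q7-C (log2 5.12 ± 0.60, adjusted p = 8.07e-05). Without Q7-C replicate 2, the Q7-C library with the most Ifit1, these log2 values were 5.15 for the response of STHdhQ7 cells and 6.25 for the difference between the nontreated lines. The response differed by a log2 of -0.43 ± 0.71 between the lines (adjusted p = 0.79), or by -1.55 without Q7-C replicate 2 (adjusted p = 0.0982), and Ifit1 was 25.8-fold higher in Q111-T than Q7-T (adjusted p = 9.28e-05).

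Ifit3 (ENSMUSG00000074896, chr19:34583531-34588731) encodes a further member of the IFIT family. It had 2.57, 6.78 and 4.34 TPM in Q7-C, 59.7, 69.3 and 59.8 TPM in Q7-T, 47.0, 58.6 and 64.0 TPM in Q111-C, and 918, 757 and 978 TPM in Q111-T. Treated STHdhQ7 cells and nontreated STHdhQ111 cells thus overlapped at about the same level. The log2 fold change after treatment was 4.09 ± 0.32 in STHdhQ7 cells (adjusted p = 7.75e-06) and 4.06 ± 0.32 in STHdhQ111 cells (adjusted p = 4.54e-06), with a difference of -0.03 ± 0.40 (adjusted p = 0.983). Ifit3 was 10.2-fold higher in Q111-C than Q7-C (adjusted p = 1.47e-05) and 10.0-fold higher in Q111-T than Q7-T (adjusted p = 1.23e-05).

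Ifit3b (ENSMUSG00000062488, chr19:34607970-34613401) is a copy of Ifit3 whose longest coding transcript matched that of Ifit3 at 97.8% of 1700 aligned positions. Of all runs of 75 bases in the Ifit3b transcript, 35.7% also occur in Ifit3, so the division of reads between the copies is uncertain. Ifit3b had 0.716, 4.02 and 2.25 TPM in Q7-C, 16.4, 9.98 and 13.9 TPM in Q7-T, 29.4, 38.1 and 40.5 TPM in Q111-C, and 690.0, 559 and 742 TPM in Q111-T. The groups did not overlap, and here nontreated STHdhQ111 cells were above treated STHdhQ7 cells. Ifit3b rose 6.84-fold in STHdhQ7 cells (adjusted p = 0.000659) and 19.7-fold in STHdhQ111 cells (adjusted p = 1.43e-05), and the log2 difference of 1.53 ± 0.49 between these responses was not called (adjusted p = 0.104). It was called in 4 of 23 alternatives: by DESeq2 (1.51, adjusted p = 0.0308), by limma with a pseudocount of 1 (1.95, adjusted p = 0.0312), without Q7-C replicate 1 (1.89, adjusted p = 0.00597) and without both that library and Q7-T replicate 2 (1.96, adjusted p = 0.0021). Without Q7-C replicate 2 it was 0.92 (adjusted p = 0.235). The line difference was 13.05-fold without treatment (log2 3.71, or 4.33 without Q7-C replicate 2; adjusted p = 3.46e-05) and 37.6-fold with it (adjusted p = 3.63e-06).

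The ratio of Ifit3b to Ifit3 TPM averaged 0.464 ± 0.164 in nontreated and 0.217 ± 0.0668 in treated STHdhQ7 cells, and 0.636 ± 0.0128 in nontreated and 0.75 ± 0.0101 in treated STHdhQ111 cells. The ratio went down with treatment in STHdhQ7 cells and up in STHdhQ111 cells, with no overlap between groups in either line (0.279 to 0.593 against 0.144 to 0.275, and 0.625 to 0.65 against 0.739 to 0.759). The two-sided exact permutation test gave p = 0.1 in each of the 4 pairwise comparisons of this ratio, the smallest value that 3 libraries against 3 allow. With the counts of both copies summed, the difference between the responses of the lines was 0.43 on the log2 scale (adjusted p = 0.64).

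Ifit2 (ENSMUSG00000045932, chr19:34550694-34576419) encodes a family member that binds AU-rich RNA. It had 12.96, 30.4 and 35.0 TPM in Q7-C and 57.3, 13.7 and 47.4 TPM in Q7-T. These groups overlapped, with the lowest values in Q7-C replicate 1 and Q7-T replicate 2, the libraries in which long transcripts were low. The longest coding transcript of Ifit2 has 3818 bases, under the 4500 used above for long transcripts, and the part of length in its values was not tested. In STHdhQ111 cells Ifit2 had 25.8, 30.0 and 32.8 TPM without treatment and 225, 168 and 255 TPM after it, with no overlap.

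Ifit2 was upregulated 7.78-fold in STHdhQ111 cells (log2 2.96 ± 0.34, adjusted p = 7.91e-05). In STHdhQ7 cells its log2 fold change was 0.72 ± 0.31 (adjusted p = 0.295), and without both of the libraries named above it was 0.76 (adjusted p = 0.00781), still under the fold threshold. Without Q7-T replicate 2 alone it was 1.03 (adjusted p = 0.025), which is past both thresholds. The lines differed by a log2 of -0.08 ± 0.31 without treatment (adjusted p = 0.897) and by 2.16 ± 0.33 after it (adjusted p = 0.000375). The difference in response was 2.24 ± 0.45 (adjusted p = 0.0129), was 2.21 without both libraries (adjusted p = 6.57e-05), and was not called by limma on log2 TPM at any of 3 pseudocounts (adjusted p between 0.0685 and 0.0965).

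ISG15 is a ubiquitin-like protein that is joined to other proteins during the interferon response. Isg15 (ENSMUSG00000035692, chr4:156199455-156200796) had 2.70, 2.16 and 2.63 TPM in Q7-C, 74.9, 48.9 and 61.5 TPM in Q7-T, 44.2, 44.9 and 55.0 TPM in Q111-C, and 740, 664 and 719 TPM in Q111-T. The spread within groups was small, nontreated STHdhQ111 cells overlapped treated STHdhQ7 cells, and Q111-T stood above all others. Isg15 rose 27.4-fold in STHdhQ7 cells (log2 4.78 ± 0.22, adjusted p = 2.07e-07) and 15.8-fold in STHdhQ111 cells (log2 3.98 ± 0.21, adjusted p = 2.72e-07). The lines differed 15.1-fold without treatment (adjusted p = 2.9e-07) and 8.69-fold after it (adjusted p = 8.97e-07). The difference in response of -0.79 ± 0.27 was not called (adjusted p = 0.117), and without Q7-C replicate 1 it was -1.03 (adjusted p = 0.0185).

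The enzymes that attach and remove ISG15 were upregulated too. All 5 genes of this group were upregulated in both lines, all 5 were higher in Q111-C than Q7-C, and 4 were higher in Q111-T than Q7-T. Of all genes tested, 2.93% were upregulated in STHdhQ7 cells and 8.28% in STHdhQ111 cells. Between the lines, 7.62% were higher in Q111-C and 13.3% in Q111-T. The activating enzyme Uba7 rose by a log2 of 4.89 ± 0.27 in STHdhQ7 cells and 4.21 ± 0.26 in STHdhQ111 cells, and the conjugating enzyme Ube2l6 by 3.94 ± 0.26 and 3.36 ± 0.25. Of the ligases, Herc6 rose by 2.18 ± 0.21 and 3.86 ± 0.22, and Trim25 by 1.61 ± 0.20 and 1.44 ± 0.19. The deconjugating protease Usp18 rose by 3.30 ± 0.67 and 4.43 ± 0.66. Herc6 alone was called in the interaction (1.68 ± 0.28, adjusted p = 0.00522), and Ube2l6 alone was not called in Q111-T vs. Q7-T (0.51 ± 0.23, adjusted p = 0.105). Of 24 alternatives, the calls in STHdhQ7 cells held in 21 for Trim25 (down to a log2 of 0.91) and 22 for Usp18 (1.49 to 4.26), and that of Ube2l6 between the nontreated lines in 23 (down to 0.95).

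Viperin turns CTP into a nucleotide that stops viral RNA polymerases. Its gene Rsad2 (ENSMUSG00000020641, chr12:26442746-26456452) had 0, 0.407 and 0.136 TPM in Q7-C and 0.396, 0.250 and 0.0705 TPM in Q7-T. In STHdhQ111 cells it had 1.52, 1.85 and 2.96 TPM without treatment and 159, 99.6 and 161 TPM after it. The STHdhQ7 groups overlapped close to zero, with at most 66 estimated counts in a library, and every STHdhQ111 library was above every STHdhQ7 library. Rsad2 rose 69.9-fold in STHdhQ111 cells (log2 6.13 ± 0.85, adjusted p = 0.000351). In STHdhQ7 cells its log2 fold change was 0.67 ± 0.83 (adjusted p = 0.784), and it became -0.26 without both Q7-C replicate 1 and Q7-T replicate 2 and 1.96 without Q7-C replicate 2, with no call in either case.

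Rsad2 was 9.84-fold higher in Q111-C than Q7-C (log2 3.30, adjusted p = 0.011), which became a log2 of 4.63 without Q7-C replicate 2 and was not called in the fit to only those groups (adjusted p = 0.054). It was 434-fold higher in Q111-T than Q7-T (log2 8.76 ± 0.97, adjusted p = 4.22e-05), the largest line difference of the 10 genes. Rsad2 reached 0.5 TPM, the filter on low values, in STHdhQ111 libraries alone, so its calls between the lines are not independent of that filter. The difference in response was 5.46 ± 1.12 (adjusted p = 0.0146). This call was lost for Rsad2 without Q7-C replicate 2 (4.14, adjusted p = 0.0834), without Q111-C replicate 1 (5.26, adjusted p = 0.0502) and without Q111-C replicate 2 (5.34, adjusted p = 0.0525). The gene next to Rsad2 on chromosome 12 is Cmpk2, a nucleotide kinase that supplies CTP. Cmpk2 had at most 0.561 TPM in the 6 STHdhQ7 libraries, 1.01, 1.04 and 1.58 TPM in Q111-C, and 65.7, 52.5 and 70.1 TPM in Q111-T. Its response was larger in STHdhQ111 cells by a log2 of 4.61 ± 1.06 (adjusted p = 0.0277). This call of Cmpk2 held in 15 of 23 alternatives, with log2 values from 2.88 to 5.53. In both neighbours the STHdhQ7 groups overlapped, below Q111-C, and Q111-T was highest. Rsad2 was at 1.51 to 1.87 times the TPM of Cmpk2 in Q111-C and 1.9 to 2.41 times in Q111-T, and at 0 to 6.14 times in the STHdhQ7 libraries, where both were low.

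Mx proteins are GTPases that bind the nucleocapsids of incoming viruses, and many inbred mouse strains carry a defective Mx1. Mx1 (ENSMUSG00000000386, chr16:97447035-97462907) had 0, 0.250 and 0.0486 TPM in Q7-C, 0.447, 0.218 and 0.220 TPM in Q7-T, 0.540, 0.969 and 0.600 TPM in Q111-C, and 45.2, 31.4 and 43.4 TPM in Q111-T. By mean TPM it was the lowest of the 10 genes in Q7-C, Q111-C and Q111-T, and in Q7-C it overlapped Rsad2. The STHdhQ7 groups of Mx1 overlapped at no more than 56 estimated counts in a library. Mx1 rose 59.2-fold in STHdhQ111 cells (log2 5.89 ± 0.71, adjusted p = 0.000125). In STHdhQ7 cells its log2 fold change was 1.82 ± 0.71 (adjusted p = 0.224), and without Q7-C replicate 2 it was 3.67 and called (adjusted p = 0.00841).

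Mx1 was 6.13-fold higher in Q111-C than Q7-C (log2 2.62, adjusted p = 0.0179). The log2 value was 4.50 without Q7-C replicate 2 and 0.63, with no call, in limma with a pseudocount of 1. The call was also lost in the fit to only those groups (adjusted p = 0.114), without Q7-C replicate 3 (log2 2.27, adjusted p = 0.0683) and without Q111-C replicate 2 (log2 2.38, adjusted p = 0.0625). It was 102-fold higher in Q111-T than Q7-T (log2 6.68 ± 0.74, adjusted p = 4.33e-05). Like Rsad2, Mx1 reached the filter of 0.5 TPM in STHdhQ111 libraries alone, so its calls between the lines are not independent of that filter. The difference in response was 4.06 ± 0.95 (adjusted p = 0.0297). Mx1 lost this call in 9 of 23 alternatives, 8 of which left out a library: Q7-C replicate 2 (2.20, adjusted p = 0.241), Q7-T replicate 3 (3.82, adjusted p = 0.0663), any of the 3 Q111-C libraries or any of the 3 Q111-T libraries (adjusted p between 0.0579 and 0.0835 for these 6). The direction stayed the same in all 23.

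Mx2 (ENSMUSG00000023341, chr16:97535308-97560900), annotated as a polymorphic pseudogene, had 0.230, 0.602 and 0.464 TPM in Q7-C, 5.24, 2.38 and 4.16 TPM in Q7-T, 2.65, 3.43 and 5.01 TPM in Q111-C, and 225, 156 and 233 TPM in Q111-T. Treated STHdhQ7 cells overlapped nontreated STHdhQ111 cells, and Q111-T stood apart from both. Mx2 rose 10.1-fold in STHdhQ7 cells (log2 3.34 ± 0.28, adjusted p = 1.35e-05) and 58.5-fold in STHdhQ111 cells (log2 5.87 ± 0.30, adjusted p = 2.62e-07). It was 6.96-fold higher in Q111-C than Q7-C (adjusted p = 2.32e-05) and 40.3-fold higher in Q111-T than Q7-T (adjusted p = 4.02e-07). The difference in response was 2.53 ± 0.37 (adjusted p = 0.0023), and Mx2 was the only one of the 10 genes called in the interaction under all 23 alternatives. Mx1 and Mx2 transcripts match at 74.5% of 1959 aligned positions, and 3.12% of the runs of 75 bases in Mx2 also occur in Mx1. In Q111-T, Mx1 was at 0.187 to 0.202 times the TPM of Mx2.

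BST2 holds newly formed virions at the membrane of the cell. Bst2 (ENSMUSG00000046718, chr8:71534255-71537456) had 34.3, 29.4 and 23.4 TPM in Q7-C, 387, 577 and 389 TPM in Q7-T, 27.9, 30.4 and 31.8 TPM in Q111-C, and 417, 339 and 350 TPM in Q111-T. The treated and nontreated libraries were far apart in both lines, and the lines overlapped in both conditions. Bst2 rose 18.5-fold in STHdhQ7 cells (log2 4.21 ± 0.39, adjusted p = 3.07e-05) and 13.2-fold in STHdhQ111 cells (log2 3.72 ± 0.38, adjusted p = 3.42e-05), with a difference in response of -0.49 ± 0.48 (adjusted p = 0.63). The lines differed by a log2 of -0.32 ± 0.34 without treatment (adjusted p = 0.572) and -0.82 ± 0.34 after it (adjusted p = 0.0806). The latter was called, with Q111-T lower, without Q7-T replicate 1 (-1.05, adjusted p = 0.0349) and without Q7-T replicate 3 (-1.02, adjusted p = 0.0478), and was -0.25 without Q7-T replicate 2, the library with the highest Bst2 value. Short transcripts were high in that library and Bst2 has one of 792 bases, but Isg15, with 756 bases, was lowest there among the Q7-T libraries, and the part of length in these values was not tested. The ratio of Bst2 to Isg15 TPM lay between 5.17 and 13.6 in the STHdhQ7 libraries and between 0.486 and 0.675 in the STHdhQ111 libraries.

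IFI44 is an interferon-induced protein reported to restrain some viruses. Ifi44 (ENSMUSG00000028037, chr3:151730922-151749960) had 0.03, 0.34 and 0.36 TPM in Q7-C, 5.29, 2.89 and 4.28 TPM in Q7-T, 1.60, 2.71 and 4.21 TPM in Q111-C, and 108, 99.8 and 110 TPM in Q111-T. As for Mx2, treated STHdhQ7 cells overlapped nontreated STHdhQ111 cells. Ifi44 rose 20.0-fold in STHdhQ7 cells (log2 4.32 ± 0.56, adjusted p = 0.000526) and 40.0-fold in STHdhQ111 cells (log2 5.32 ± 0.57, adjusted p = 5.1e-05). It was 9.82-fold higher in Q111-C than Q7-C (adjusted p = 0.000921) and 19.7-fold higher in Q111-T than Q7-T (adjusted p = 0.000108). The difference in response was 1.00 ± 0.70 (adjusted p = 0.471), and without Q7-C replicate 1 and Q7-T replicate 2 it was 1.51 and called (adjusted p = 0.0396). Limma called it too, at 2.42 with a pseudocount of 0.5 (adjusted p = 0.00825) and at 2.82 with a pseudocount of 1 (adjusted p = 0.000834), but not with 0.1 (1.47, adjusted p = 0.326).

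**Figure D4:**
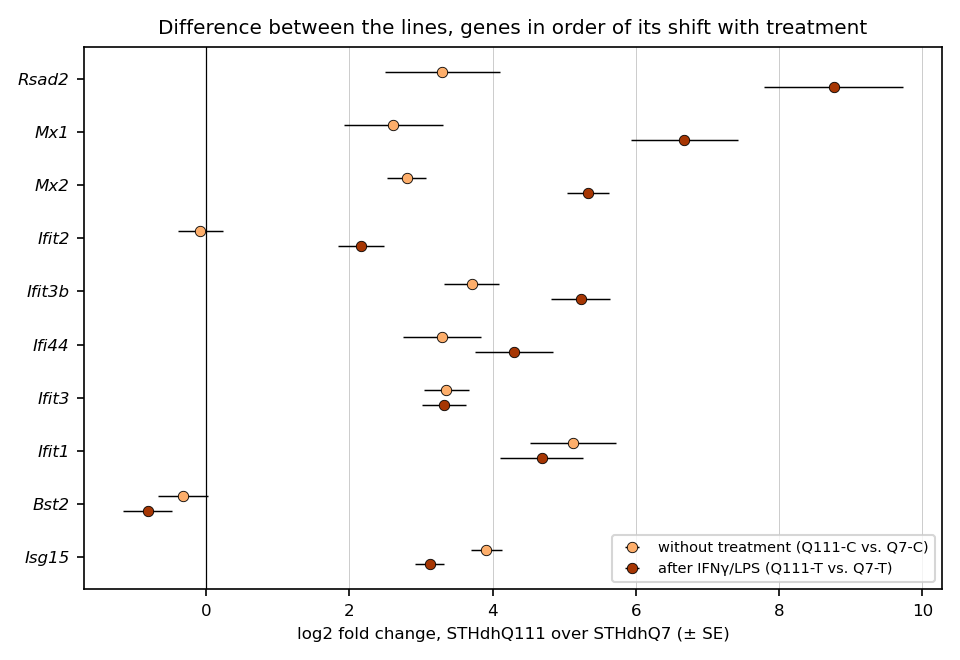
Log2 fold change between the lines (STHdhQ111 over STHdhQ7, ± SE from 3 libraries per group) for each gene without treatment and after IFNγ/LPS, with genes ordered by the shift between them. Rsad2 moves from 3.30 to 8.76, Ifit2 from -0.08 to 2.16, Ifit3 stays at 3.36 and 3.32, and Bst2 lies at -0.32 and -0.82.

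The order of the 10 genes by TPM, which is scaled for length, changed with line and treatment. In Q7-C, Bst2 (29.0 ± 5.47 TPM) and Ifit2 (26.1 ± 11.6 TPM) were the highest and overlapped, Ifit3 followed at 4.56 ± 2.11 TPM, and no neighbours below it in the order were separated. In Q7-T, Bst2 (451 ± 109 TPM) was above every other member in every library, ahead of Ifit3 (62.9 ± 5.50 TPM) and Isg15 (61.8 ± 13.04 TPM), which overlapped. In Q111-C the highest were Ifit1 (69.0 ± 11.2 TPM), Ifit3 (56.5 ± 8.70 TPM) and Isg15 (48.0 ± 6.05 TPM), each overlapping the next. In Q111-T, Ifit3 (884 ± 115 TPM), Ifit1 (796 ± 133 TPM), Isg15 (708 ± 39.3 TPM) and Ifit3b (664 ± 94.2 TPM) overlapped in that order and were all above Bst2 (369 ± 42.3 TPM), and Mx1 was lowest at 40.0 ± 7.53 TPM. Summed over the 10 genes, the level was 53.9 to 77.9 TPM in Q7-C, 608 to 736 TPM in Q7-T, 237 to 314 TPM in Q111-C and 3528 to 4509 TPM in Q111-T.

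Likeness between genes was measured as the root mean square difference of their log2(TPM + 0.5) over the 12 libraries, each gene centred on its own mean. The closest pairs were Mx2 and Ifi44 (0.391), Ifit3 and Isg15 (0.428), and Ifit1 and Ifit3b (0.588). Bst2 was the farthest member from 8 of the other 9 genes, and its own nearest member was Ifit2 (1.64). Outside the 10 genes, those closest to their median profile were Dhx58 (0.324), a regulator of RNA sensing, Slfn2 (0.397) and Slfn8 (0.428) of the Schlafen family, the cytokine gene Lif (0.425) and Oas1b (0.463), an oligoadenylate synthetase gene. Dhx58 had means of 0.726, 4.90, 5.98 and 112 TPM in Q7-C, Q7-T, Q111-C and Q111-T.

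The signals upstream were uneven. Of 21 interferon ligand genes, 9 were among the rows and 3 were tested. Ifnb1, which encodes IFN-β, was listed at 0 in all nontreated libraries, had 0.461 TPM in 1 Q7-T library and 0 in the other 2, and had 3.80, 3.39 and 2.65 TPM in Q111-T. With groups at zero set to 12 estimated counts per library, it was at least 7.66-fold higher in Q111-T than in Q111-C and at least 5.92-fold higher than in Q7-T. Ifna4 was listed at 0 in all libraries other than Q111-T, where it had 3.43, 4.23 and 1.00 TPM, at least 5.21-fold above Q111-C. Both genes passed the filter on low values through Q111-T alone, so these values are given without a test, and the interaction could not be estimated with both nontreated groups at 0. The levels rest on few reads, with 243 and 165 estimated counts over the 3 Q111-T libraries. Ifna5 reached 0.76 TPM in Q111-T, and Ifnz stayed under 1 TPM in every library.

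Of 14 interferon receptor and signalling genes, 5 were upregulated in STHdhQ7 cells and 6 in STHdhQ111 cells, 5 were higher in Q111-C than Q7-C and 4 in Q111-T than Q7-T. Over all genes tested, the shares called upregulated in these comparisons were 2.93%, 8.28%, 7.62% and 13.3%. The median log2 fold change of this list, 0.23 for STHdhQ7 cells and 0.42 for STHdhQ111 cells, was below that of the 10 effector genes. Among genes for the ISRE-binding complex, Stat2 rose by 3.65 ± 0.27 in STHdhQ7 cells and 2.94 ± 0.26 in STHdhQ111 cells, and Irf9 by 2.70 ± 0.16 and 2.02 ± 0.15 on the log2 scale. Irf7, a factor that sustains interferon transcription, rose by 4.88 ± 0.32 and 4.19 ± 0.30, and Irf1 by 4.15 ± 0.21 and 3.61 ± 0.20. The receptor gene Ifnar2 rose by 1.01 ± 0.16 and 1.46 ± 0.16, and the kinase gene Jak2 was called in STHdhQ111 cells alone (1.08 ± 0.30), with no call in the interaction. Each of these calls of Ifnar2 in STHdhQ7 cells and of Jak2 held in 16 of 24 alternatives, with log2 values down to 0.80 and 0.93.

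In Q111-C vs. Q7-C, Irf7 (3.95 ± 0.30), Irf9 (2.43 ± 0.16), Stat2 (1.41 ± 0.25), Irf1 (1.19 ± 0.19) and Ifngr2 (1.01 ± 0.14), a subunit of the IFNγ receptor, were higher on the log2 scale. In Q111-T vs. Q7-T, Irf7 (3.26 ± 0.29), Irf9 (1.75 ± 0.15), Ifngr2 (1.20 ± 0.14) and Il10rb (1.15 ± 0.19), a subunit of the IFN-λ receptor, were higher. The call of Ifngr2 between the nontreated lines held in 21 of 24 alternatives and that of Il10rb between the treated lines in 22 of 24, with log2 values down to 0.96 in each. The remaining genes of the list, Ifnar1, Ifngr1, Ifnlr1, Jak1, Tyk2 and Irf3, were not called in any of the 5 comparisons.

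Of 11 genes of the OAS, RNase L and PKR group, which sense double-stranded RNA, 10 were tested. In STHdhQ7 cells 7 were upregulated and in STHdhQ111 cells all 10, with medians of 2.87 (2.60 with Oas1g, whose Q7-C libraries were at the floor, set to its lower bound) and 3.98. In STHdhQ7 cells the largest changes were those of Oasl2 (5.77 ± 0.56) and Oas1b (4.53 ± 0.41), and Oasl1 (-0.36 ± 0.63, adjusted p = 0.86) and Adar (0.95 ± 0.20, under the fold threshold) were the smallest. Over 24 alternatives Oasl2 ran from 4.137 to 6.549 and Oas1b from 2.181 to 5.355, with every call kept. In STHdhQ111 cells Oas3 (5.88 ± 0.73) and Oas2 (5.85 ± 0.85) changed most, and Oasl1 (1.58 ± 0.46) and Adar (1.68 ± 0.20) least. The call of Oasl1 there held in 16 of 24 alternatives. Oas2 had over 0.5 TPM in 1 library outside Q111-T and so passed the filter on low values only through that group, and its calls in comparisons with Q111-T, which are in these counts, are no test. Of these 10 genes, 8 were higher in Q111-C than Q7-C and 9 in Q111-T than Q7-T, and 0 were called in the interaction by edgeR, against 3 by DESeq2. The shares of all genes upregulated were 2.93% in STHdhQ7 and 8.28% in STHdhQ111 cells. Between the nontreated and the treated lines they were 7.62% and 13.3%.

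Of 25 other antiviral effector genes, 23 were tested, of which 14 were upregulated in STHdhQ7 cells, 18 in STHdhQ111 cells, 13 in Q111-C vs. Q7-C and 14 in Q111-T vs. Q7-T. The same 4 comparisons called 2.93%, 8.28%, 7.62% and 13.3% of all genes tested upregulated. Gvin1, a large interferon-induced GTPase, rose by 6.79 ± 0.49 on the log2 scale in both lines. Ifi27l2a was listed at 0 in Q7-C, and treated STHdhQ7 cells had at least 2.31-fold more of it. Sp110, at or under 12 estimated counts in every Q111-C library, was at least 44.0-fold higher in Q111-T. Outside Q111-T it had at most 0.174 TPM, so it passed the filter on low values through that group alone. The same holds for Ddx60 and Ifit1bl2, with 2 libraries each at 0.5 TPM or more elsewhere, and the calls of these 3 genes in comparisons with Q111-T, which are in these counts, are no test. The smallest changes were those of Shisa5 (0.66 ± 0.16) and Sp110 (0.86 ± 0.85) in STHdhQ7 cells and of Ifitm2 (0.17 ± 0.40) and Apobec3 (0.63 ± 0.13) in STHdhQ111 cells, none of which was called. In the interaction, Cmpk2 and Tor3a (2.32 ± 0.22, adjusted p = 0.000227) had the larger response in STHdhQ111 cells and Rtp4 (-1.66 ± 0.31, adjusted p = 0.00985) the smaller. Tor3a had 13.3 to 16.6 TPM in Q7-C and 15.7 to 19.6 TPM in Q111-C, and rose to 133 to 163 TPM in Q111-T. As for Ifit2, its nontreated lines overlapped and its response differed.

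**Figure D5:**
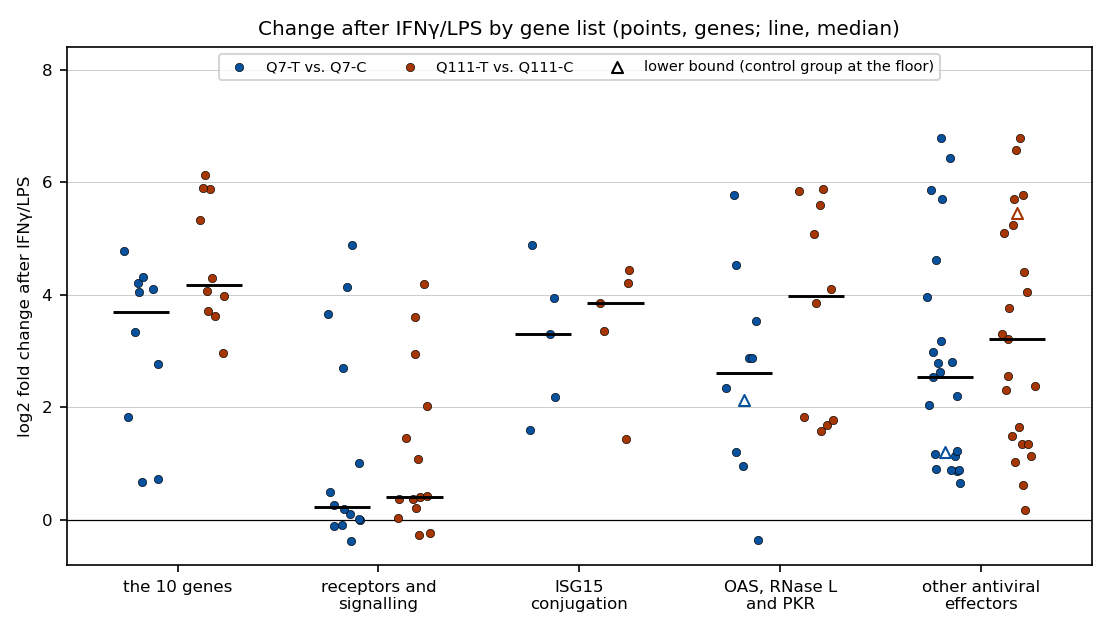
Log2 fold change after IFNγ/LPS in STHdhQ7 and STHdhQ111 cells for the 10 genes and for 4 further interferon lists (points, genes; lines, medians; triangles, lower bounds where the nontreated group was at the floor of 12 estimated counts). The 10 genes have medians of 3.70 and 4.18, and the receptor and signalling list lies lowest at 0.23 and 0.42.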

How the data were processed

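Poly(A) RNA of 12 samples was sequenced as stranded paired-end libraries. According to the study's methods, the authors trimmed reads with Cutadapt, mapped them with HISAT2 to GRCm38, assembled transcripts with StringTie, merged them with gffcompare, and took expression estimates from StringTie and Ballgown; tool versions are not given in the sources used here. The authors deposited TPM values per gene and library, scaled for transcript length and library total, and the authors deposited estimated counts as whole numbers without normalization. About 4 counts appear to stand for 1 read pair, since counts fell on multiples of 4 1.3 to 1.66 times as often as on other even numbers; the libraries would then hold 14376497 to 24104458 read pairs. The floors set for lower bounds cover counting error only.

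The genes tested reached 0.5 TPM in 3 or more libraries (16127). After TMM scaling, 1 fit over the 12 libraries was made with edgeR's quasi-likelihood test (edgeR 4.0.16, R 4.3.3) with a mean per group and no block. Calls needed an adjusted p (Benjamini-Hochberg) under 0.05 together with a 2-fold change or more. The fit was tested on simulated data. Groups at or under 12 estimated counts (3 read pairs) in every library were set to that floor, per library, for lower bounds. Between libraries of a group, chi-square divided by its degrees of freedom was 19.6 or more, so none was counted as deposited more than once. On the TPM scale the median of all genes shifted (log2) by 0.27 between the nontreated and 0.34 between the treated lines, and by -0.16 with treatment of STHdhQ7 cells and -0.10 of STHdhQ111 cells; fold changes given here are on the TMM scale. Alternatives were other filters, RLE scaling, DESeq2 1.42.0, limma 3.58.1 on log2 TPM with pseudocounts of 0.5, 0.1 and 1, counts divided by 4, only the groups compared, a replicate block, Ifit3 and Ifit3b summed, each library left out, and, chosen after seeing the data, 2 libraries left out together.

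Members and gene lists were chosen with earlier results of these data known. Named were all 10 members, all ligand genes over 0.5 TPM, all signalling genes (other than 1 that is not reported here and is in no count) and ISG15 conjugation genes, and of the other 2 lists the 2 largest and 2 smallest changes in each treatment comparison and the genes called in the interaction; Cmpk2 also as the neighbour of Rsad2. Of the marker lists fixed, oligodendrocyte genes summed to at most 0.617 TPM, and endothelial genes to at most 1.65. Start-site windows are from RefSeq (GRCm38.p6). Gene positions are those of the deposited table, and gene types, neighbours and transcripts are from GENCODE M21.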

Additional observations from a re-analysis of the deposited data

Results flagged for a closer look

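The response to IFNγ/LPS differed between the lines, by edgeR's test of the interaction, for 8 of the interferon genes named, leaving out Sp110. The cell type markers Map2 (1.81) and Slc1a3 (-1.96) were called too and are not among these. Among the effector genes, the log2 fold change was larger in STHdhQ111 cells by 5.46 for Rsad2 (adjusted p = 0.0146), 4.06 for Mx1 (adjusted p = 0.0297), 2.53 for Mx2 (adjusted p = 0.0023) and 2.24 for Ifit2 (adjusted p = 0.0129). In Q7-C, Rsad2 and Mx1 were listed at 0 in replicate 1 and had at most 66 and 35 estimated counts in the others.

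Among the further interferon genes, Cmpk2 (4.61), Tor3a (2.32) and Herc6 (1.68) had the larger response in STHdhQ111 cells, and Rtp4 (-1.66) the smaller. The value for Sp110 (6.05) depends on the prior count, since all Q111-C libraries were at or under 12 estimated counts, and Sp110 passed the filter on low values through Q111-T alone, so its call is no test. Herc6 and Tor3a were called under all 23 alternatives, Rtp4 under 21 of 23, Cmpk2 under 15 of 23 and Sp110 under 19 of 20.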

How the results depend on the processing

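Across 25 alternatives, the number of the 10 genes called was 10 in Q111-T vs. Q111-C throughout, 7 or 8 in Q7-T vs. Q7-C, 9 or 10 in Q111-T vs. Q7-T, and 6 to 8 in Q111-C vs. Q7-C, where the fit to only those groups lost Mx1 and Rsad2. Where all 10 were called in Q111-T vs. Q7-T, Bst2 was called lower in Q111-T and the others higher. In the interaction the number called ranged from 2 to 6 over the fits that left out a library, against 4: it was 2 without Q7-C replicate 2, Q111-C replicate 1 or Q111-C replicate 2, and 6 without Q7-C replicate 1, where Ifit3b and Isg15 were added. Isg15 was called there with the smaller response in STHdhQ111 cells (-1.03). It was 5 with DESeq2, 3 to 5 with limma, and 6 without both libraries that stand apart. Same-numbered deviations from the group means correlated at -0.416 to 0.303. Q7-C replicate 1 and Q7-T replicate 2, which stand apart, carry different numbers, so these values do not settle whether replicate numbers pair the samples. With the replicate block 3 of the 4 calls remained in the interaction (Mx1: 3.96, adjusted p = 0.0547).

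Signs turned in differences that were not called. Without both libraries, Rsad2 in Q7-T vs. Q7-C was -0.26. In Q111-C vs. Q7-C, Ifit2 was 0.29, 0.29 and 0.28 and Bst2 0.062, 0.063 and 0.060 in limma with pseudocounts of 0.5, 0.1 and 1; leaving out 1 library gave -0.32 to 0.14 (-0.315 to 0.135) and -0.50 to 0.01 (-0.501 to 0.013), and Bst2 was 0.011 without both libraries. In the interaction, Ifit1 was 0.20 in limma with a pseudocount of 1. Ifit3 was 0.23, 0.11 and 0.36 (0.355) in limma, 0.43 summed with Ifit3b, -0.38 to 0.34 (-0.375 to 0.339) with 1 library left out and 0.56 without both libraries, and Bst2 was -0.83 to 0.06 (0.056) with 1 left out. Oasl1 in Q7-T vs. Q7-C was -1.68 to 0.09 (0.086) with 1 left out and 0.14 without both libraries. Ifitm2 in Q111-T vs. Q111-C was -0.02, -0.02 and -0.02 in limma and -0.27 to 0.35 with 1 left out. The cause was not tested.

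Counts over all genes moved by over 1.5 times in the interaction with DESeq2 (905 up and 394 down against 567 and 193), without both libraries (1050 and 334) and without Q111-C replicate 2 (374 up). In Q7-T vs. Q7-C, limma with a pseudocount of 1 called 294 up against 472, and 179 down became 276 with DESeq2, 78 in the fit to only those groups, 116 without Q7-C replicate 2 and 280 by adjusted p alone. By adjusted p alone, 477, 1227 and 1814 down became 1182 for the response of STHdhQ111 cells, 1868 between the nontreated and 3009 between the treated lines. On the TPM scale, limma with a pseudocount of 0.5 called 1489 up and 767 down between the nontreated lines against 1229 and 1227, and 2940 and 777 between the treated lines against 2145 and 1814; pseudocounts of 0.1 and 1 gave 870 and 592 down and 937 and 623 down, with 3265 up in the latter comparison at 0.1. Rsad2, Mx1, Ifnb1 and Ifna4 rest on few counts in STHdhQ7 cells. Ifnb1, Ifna4 and Sp110 fell under the filter when a Q111-T library was left out.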
